A study of Mus musculus with 816 samples.

Results

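The 8 genes described here encode the inflammatory CC chemokines of the mouse that were measured in a panel of microglial stimuli: Ccl2, Ccl7, Ccl12, Ccl8, Ccl3, Ccl4, Ccl5 and Ccl9. They were taken by name, 8 of the 45581 genes listed, and followed in 784 cultures and 32 mice. The cultures were primary microglia from neonatal mouse brain, bought from ScienCell and plated in 96-well plates 4 days before a stimulus was added, so the panel describes microglia in culture, outside brain tissue. They received cytokines, ligands of Toll-like receptors (TLRs), transmitters, lipids or drugs, alone or mixed, for 4, 24 or 72 h, and 40 untreated cultures at 24 h and 25 at 72 h served as their controls. In the text, LPS_hi and LPS_lo are lipopolysaccharide at 0.0001 and 0.00001 µg/µl, P3C is the TLR2 ligand Pam3CSK4 at 0.001 µg/µl, and IC is polyIC, a double-stranded RNA analogue, at 0.2 µg/µl. The cytokines used below were IFNa (0.0008 µg/µl), IFNb and IFNg (each 0.0001 µg/µl), IL4, IL10 and IL13 (each 0.00005 µg/µl), GMCSF (0.000005 µg/µl), TNFa (0.000004 µg/µl) and TGFb (0.0001 µg/µl), and PGE2 is prostaglandin E2 at 0.001 µg/µl.

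The mice were C57BL/6. In an LPS experiment, 2 month old females received 2 mg/kg LPS or PBS by intraperitoneal injection, 4 animals in each group, and brain microglia were isolated with CD11b beads 4 h later. In an aging experiment, naive male mice of 2 months (11 animals) and 22 months (13 animals) were compared in 2 series of libraries, the first with 4 and 4 animals and the second with 7 and 9. These group sizes are those of the labels, and the study's methods give other ones. The labels call these mice naive, whereas the header of the deposited table gives all mice of both experiments as vehicle, for 2 weeks in the LPS experiment and the first series and for 4 weeks in the second. CD11b beads also bind monocytes, macrophages, neutrophils and NK cells, so cells of those types can enter a mouse sample.

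CC chemokines are small secreted proteins that draw leukocytes along a gradient by binding G protein-coupled receptors. Ccl2, Ccl7 and Ccl12 act on Ccr2 and recruit monocytes, Ccl8 is a related protein that in the mouse also acts on Ccr8, and Ccl3 and Ccl5 act on Ccr1. Ccl3, Ccl4 and Ccl5 draw T cells, monocytes and NK cells. Ccl9 is a mouse ligand of Ccr1. Microglia and macrophages transcribe these genes after TLR ligands through NF-kB and through interferon-activated STAT and IRF factors, and the proteins bring monocytes and T cells into inflamed brain.

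All 8 genes lie on chromosome 11 (GENCODE annotation of GRCm38), in 2 groups separated by 1408979 bases. The first group holds Ccl2 (chr11:82035571-82037453), Ccl7 (chr11:82045712-82047525), Ccl12 (chr11:82101845-82103400) and Ccl8 (chr11:82115185-82116799), all on the plus strand. The second holds Ccl5 (chr11:83525778-83530518), Ccl9 (chr11:83572919-83578636) and Ccl3 (chr11:83647844-83649355) on the minus strand and Ccl4 (chr11:83662584-83664683) on the plus strand. No stretch of 31 bases in the transcripts of a member occurred in another CC chemokine gene, so reads of these related genes could be told apart.

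Promoter sequences of 4 members were read from RefSeq (GRCm38.p6), 250 bases before the start of each gene, and those of Ccl12, Ccl8 and Ccl9 are shown. They were searched on both strands for 5 motifs, in which N is any base. For the transcription factor NF-kB the letters were GGG and CC with 5 bases between them, which were present in 45.4% of 27025 promoters of this length. For the ISRE, the element of interferon-activated factors, they were GAAA repeated after 2 bases, present in 3.04% of promoters. TTCNNNGAA was taken for GAS, an element of interferon-responsive genes, and was present in 7.18% of promoters. The AP-1 letters were TGANTCA, present in 6.87%. TATAAA stood for the TATA box, present in 13% of promoters. Capitals mark the matches. Ccl12 is chr11:82101595-82101844 on the plus strand, Ccl8 is chr11:82114935-82115184 on the plus strand and Ccl9 is chr11:83578637-83578886 on the minus strand, each written 5′ to 3′.
Ccl12: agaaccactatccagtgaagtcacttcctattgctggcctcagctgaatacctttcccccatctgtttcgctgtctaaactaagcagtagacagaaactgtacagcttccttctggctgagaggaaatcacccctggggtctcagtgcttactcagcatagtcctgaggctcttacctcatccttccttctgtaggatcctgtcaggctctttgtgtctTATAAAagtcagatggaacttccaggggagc
Ccl8: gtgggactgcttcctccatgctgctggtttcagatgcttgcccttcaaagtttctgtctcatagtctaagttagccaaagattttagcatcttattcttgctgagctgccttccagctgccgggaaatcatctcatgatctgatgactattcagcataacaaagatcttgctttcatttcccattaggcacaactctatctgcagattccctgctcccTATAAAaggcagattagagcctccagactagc
Ccl9: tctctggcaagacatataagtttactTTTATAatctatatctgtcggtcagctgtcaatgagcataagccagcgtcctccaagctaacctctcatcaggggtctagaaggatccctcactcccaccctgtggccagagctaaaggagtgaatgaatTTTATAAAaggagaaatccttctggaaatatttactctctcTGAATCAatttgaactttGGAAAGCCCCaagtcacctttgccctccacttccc

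Ccl12 and Ccl8 each held a TATA box at nearly the same place, 31 to 26 and 32 to 27 bases before the start, and no other match. Ccl9 held an NF-kB match on the other strand 35 to 26 bases before the start, an AP-1 match 53 to 47 bases before it, and TATA letters at 224 to 219, 94 to 89 and 92 to 87 bases, of which the last 2 overlap. The promoter of Ccl3 held none of the 5 motifs. A match describes the letters of a sequence and is no evidence of a site.

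The values are CPM, reads of a gene scaled to the same total in every sample, which held 1 to 38.2 M reads in cultures and 2.36 to 7.78 M in mice. A gene was called changed in cultures at an adjusted p under 0.05 and a log2 fold change of at least 1 on the log2(CPM + 1) scale, and in mice at an adjusted p under 0.05. The cultures came from 3 lots of cells, 10 plates and 21 library pools, the p-values measure the spread between wells, and values fitted within plates are given beside many of the calls that changed there, though not beside all. The 8 microglial markers summed to 3551 to 9142 CPM in untreated cultures at 24 h, while 7 of 8 T and NK cell markers and 5 of 6 neutrophil markers had a median of 0 there. Perivascular macrophage markers summed to 144.5 to 469.5 CPM in the same cultures and fibroblast markers to 0.651 to 384.6. Endothelial markers summed to 18.8 to 179.6 CPM, monocyte markers to 7.15 to 87.5 and astrocyte markers to 0.309 to 37.1. The part of such cells in the culture results was not tested. A culture labelled IC at 24 h (replicate 5) correlated more with the mean of the P3C cultures (0.885) than with the other IC cultures (0.737), and IC results were computed with and without it.

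In untreated cultures the genes of the first chromosomal group were low and variable. Ccl2 lay between 0.623 and 70.7 CPM at 24 h (median 7.65), Ccl7 between 0 and 16.8 (median 5.25), Ccl12 between 0 and 5.90 (median 0.860) and Ccl8 between 0 and 5.39 (median 0.598). Genes of the second group were present in every untreated culture. At 24 h Ccl3 lay between 11.03 and 91.6 CPM (median 32.3), Ccl4 between 21.3 and 249 (median 100.3), Ccl5 between 42.2 and 1279 (median 489) and Ccl9 between 33.8 and 97.4 (median 55.9). Much of the spread of Ccl5 lay between plates, whose median ranged from 47.2 to 828 CPM over 6 plates, against 37 to 70 CPM for Ccl9. At 72 h the untreated medians were 6.39 CPM for Ccl2, 2.84 for Ccl7, 0.240 for Ccl12, 0.594 for Ccl8, 32.01 for Ccl3, 172 for Ccl4, 200 for Ccl5 and 68.4 for Ccl9. Ccl8 was uneven at this time, with a highest culture of 302 CPM and plate medians from 0 to 17.8 CPM. Ccl5 was lower at 72 h by the pooled test (log2 fold change −1.48, adjusted p = 3e-05, where 6.23% of all genes were called lower). No plate held untreated cultures of both times, so plate and time cannot be told apart in this comparison.

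The question asked of the panel was which stimuli change these chemokines, and whether they change together. Among 44 conditions at 24 h, 108 of 352 pairs of member and condition were called higher and 22 lower, and in 16 conditions no member was called. Of all pairs of gene and condition at 24 h, 1.54% were called higher and 3.12% lower. Among 42 conditions at 72 h, 137 of 336 pairs were higher and 14 lower, with 8 conditions without a call, against 2.98% and 3.80% of all pairs.

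Without LPS, 0.962% of all pairs of gene and condition were called higher at 24 h and 1.39% lower. Ccl9 was higher in 12 of 36 such conditions and lower in 1, Ccl2 was higher in 7, Ccl7 and Ccl12 in 6 each, Ccl8 in 5, Ccl4 and Ccl5 in 4 each and Ccl3 in 2. Ccl5 was called lower in 9 of them, Ccl3 in 6 and Ccl4 in 5, while Ccl7, Ccl12 and Ccl8 were lower in none. The lower calls at 24 h depended on the plate. With the plate in the model 103 of the 108 higher calls remained, but 7 of the 22 lower ones, and none of the 9 for Ccl5. The cultures with 2AG, AEA, CCL2, CCL7, eotaxin, GABA, glutamate, LiA, OA, PA, s100B, substance P, estradiol, minocycline, rapamycin or resveratrol had no call at 24 h. HDL, high-density lipoprotein, lowered Ccl3 at 24 h (8 cultures, 4.85 to 16.7 CPM, median 10.83, −1.69), and its calls for Ccl2 (−1.91) and Ccl4 (−1.75) were lost within plates. The heat map of fold changes shows the LPS block and the sparser columns of GMCSF, interferons, P3C, IC and IL4.

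**Figure D1:**
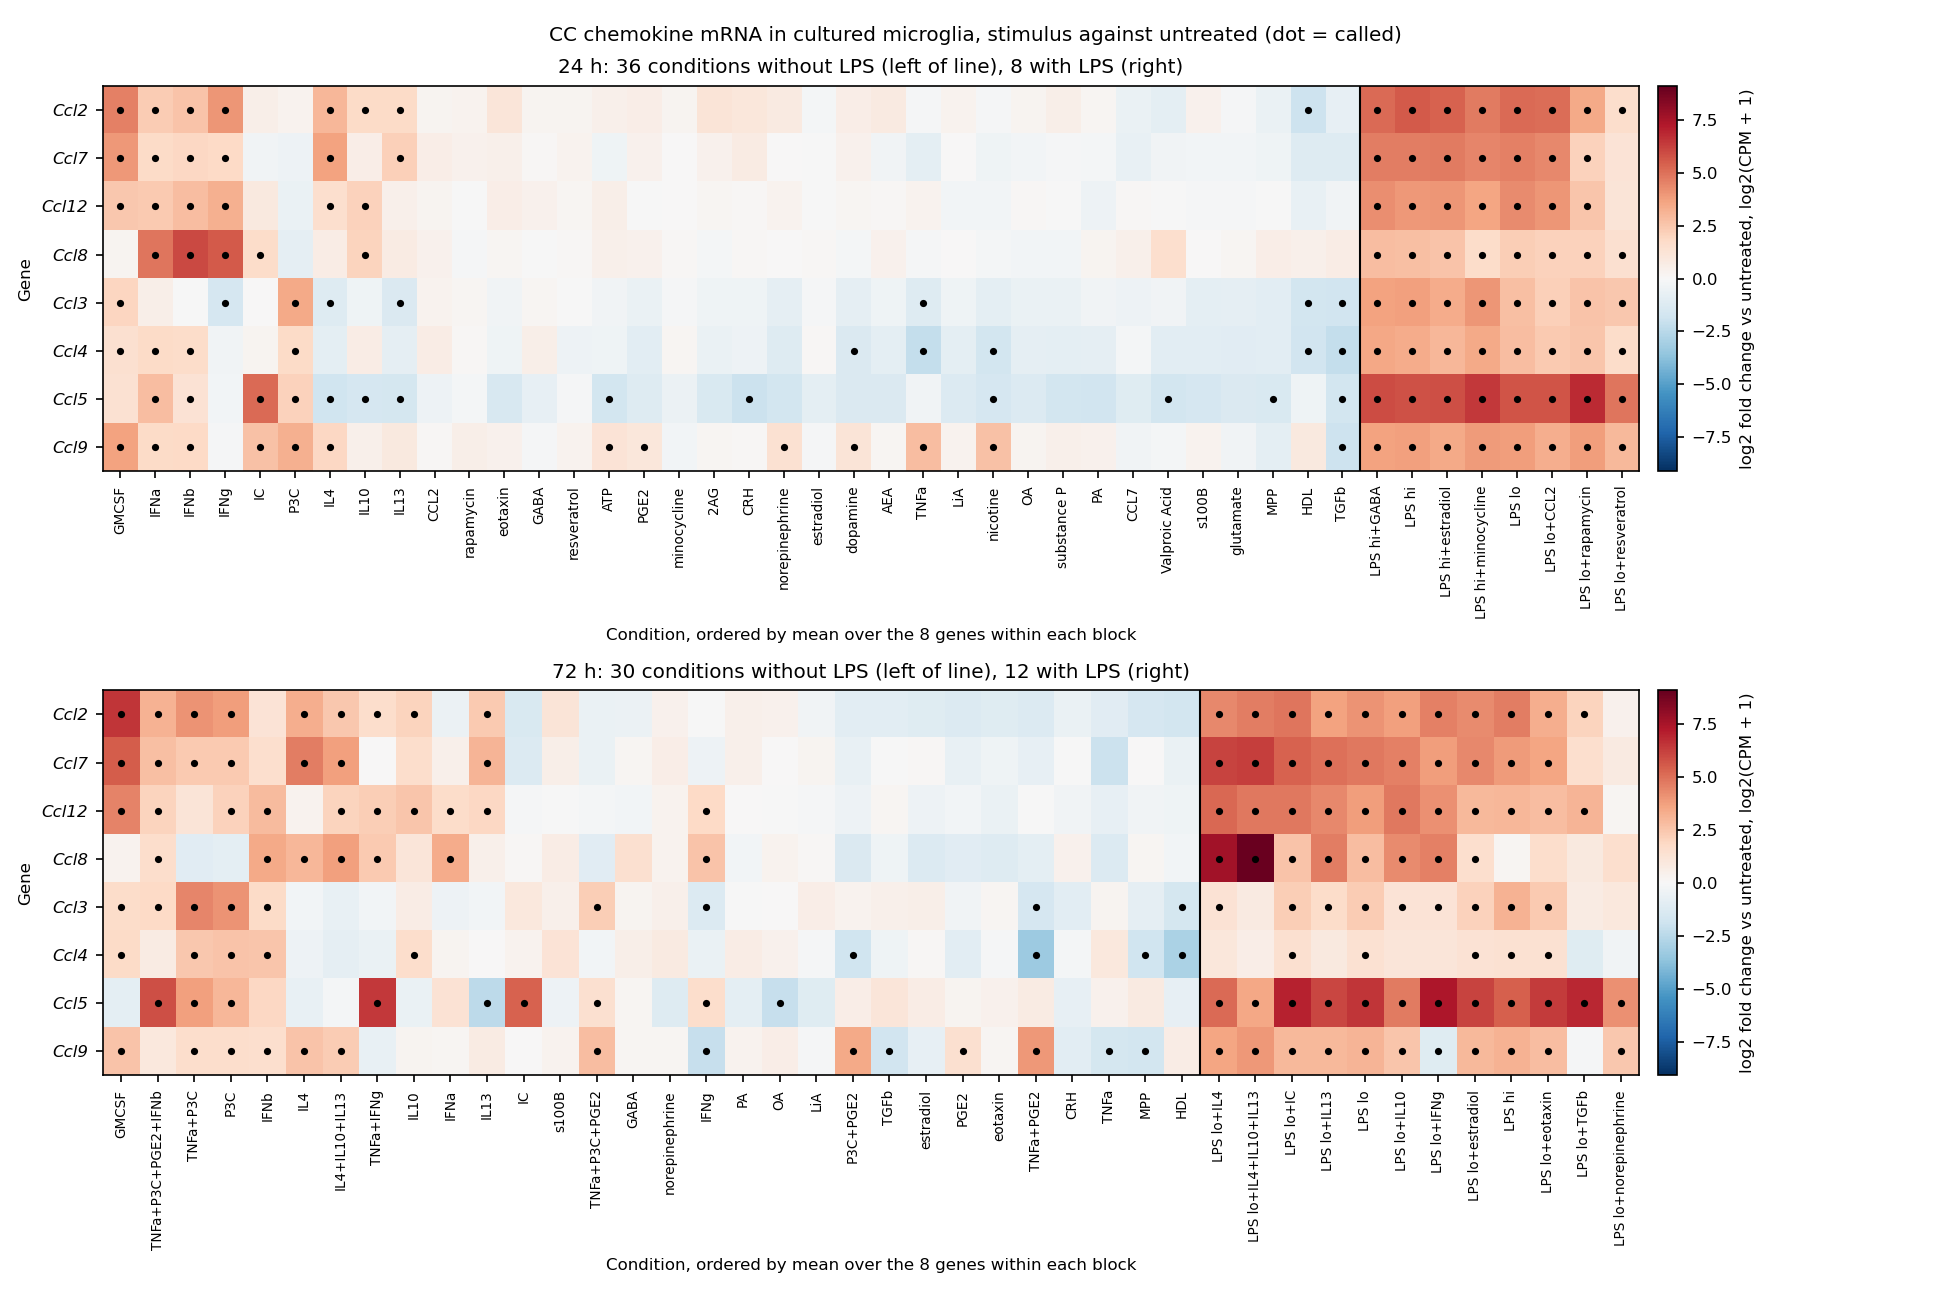
Log2 fold change against untreated cultures of the same time, on the log2(CPM + 1) scale, for the 8 genes (rows) in 44 conditions at 24 h and 42 at 72 h (columns), with a dot for each call. All 8 rows are red in LPS_hi and LPS_lo at 24 h, among the 24 h columns the Ccl8 row is darkest with IFNa, IFNb and IFNg, and Ccl5 holds 9 of the 22 lower calls at 24 h.

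LPS acts on TLR4, which signals to NF-kB and, through a separate adaptor, to type I interferon. After LPS_hi for 24 h (18 cultures) all 8 members were called higher, where 5.25% of all genes were. Ccl5 rose from its untreated range to between 9449 and 41388 CPM (median 20106), a log2 fold change of 5.80 ± 0.34 (SE, adjusted p = 5.1e-53). Ccl2 lay between 140 and 994 CPM (median 561, 5.58 ± 0.38, p = 4e-40) and Ccl7 between 39.7 and 314 (median 118, 4.66 ± 0.39). These 3 genes did not overlap with untreated cultures. Ccl3 (186 to 775 CPM, median 495, 3.71 ± 0.24), Ccl4 (270 to 2044, median 921, 3.36 ± 0.30) and Ccl9 (444 to 1559, median 710, 3.74 ± 0.17) also stood apart from every untreated culture. Ccl12 (2.94 to 134 CPM, median 47.2, 3.95 ± 0.33) and Ccl8 (0 to 47.2, median 17.5, 2.77 ± 0.38, adjusted p = 2e-11) overlapped with untreated cultures in their lowest wells. Microglial markers fell at the same time, 6 of 8 being called lower, with sums of 791 to 2694 CPM after LPS_hi, and in such bulk samples fewer cells of a type and less RNA per cell cannot be told apart.

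The lower dose gave calls for the same 8 genes at 24 h (7 cultures, 4.15% of all genes called higher). Ccl5 lay between 14068 and 25830 CPM (median 15889, 5.71), Ccl2 between 92.3 and 520 (median 431, 5.16 ± 0.55) and Ccl8 between 0.739 and 30.8 (median 9.82, 2.21, adjusted p = 0.00077). No member differed between LPS_hi and LPS_lo at 24 h in the pooled test. Within plates, Ccl3 (1.55) and Ccl5 (1.54) were higher at the higher dose, as Ccl3 was at 72 h (1.51).

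At 4 h no untreated culture was available, so LPS_hi (7 cultures) was set against the 14 cultures that had received the CCL2 or CCL7 protein for 4 h. All 8 members were higher, against 5.20% of all genes. Ccl4 lay between 7126 and 10516 CPM (median 8860) against 52.1 to 303 (median 156), a log2 fold change of 5.93 ± 0.50, and Ccl3 between 1480 and 2084 (median 1605) against 14.6 to 106 (median 53.4), 5.19 ± 0.39. For both of these genes this was the highest mean of the 97 culture groups. Ccl2 (148 to 631 CPM, median 505, against 0.994 to 19.3, median 5.37) and Ccl5 (4546 to 16111, median 13589, against 206 to 835, median 342) also showed no overlap, with log2 fold changes of 5.84 ± 0.62 and 4.69. Ccl8 had risen least, to between 0.702 and 22.4 CPM (median 4.66) against 0 to 2.94 (median 0.516), a difference of 1.86 (adjusted p = 0.013).

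At 72 h the doses parted for Ccl8. After LPS_hi (13 cultures) it lay between 0 and 18.9 CPM (median 2.62), which was not called (0.15 ± 0.46, adjusted p = 0.88), and after LPS_lo (11 cultures) between 1.49 and 121 (median 24.8), 2.80 ± 0.49. The difference between doses was −2.65 ± 0.55 (adjusted p = 0.00025). The other 7 members were higher with both doses, where 3.59% of all genes were called higher for LPS_hi and 4.40% for LPS_lo. Ccl5 lay between 2790 and 12237 CPM (median 5057, 5.43) after LPS_hi and between 5350 and 15214 (median 12432, 6.48 ± 0.43) after LPS_lo. Ccl4 rose less, with 126 to 1149 CPM (median 689, 1.41 ± 0.37, adjusted p = 0.0012) after LPS_hi and 145 to 944 (median 453, 1.40) after LPS_lo. Ccl9 kept a log2 fold change of 3.14 and 3.06.

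P3C, which signals through TLR2, raised 4 members at 24 h (6 cultures), where 3.22% of all genes were called higher. Ccl3 lay between 225 and 489 CPM (median 407, 3.43 ± 0.37, adjusted p = 1.9e-17) and Ccl9 between 409 and 773 (median 498, 3.22 ± 0.26, p = 2.4e-29), both above every untreated culture. Ccl5 (450 to 5801 CPM, median 1237, 2.09 ± 0.52) and Ccl4 (76.6 to 902, median 493, 1.74 ± 0.47) rose less and overlapped with untreated cultures. The Ccr2 ligands were not called. Ccl2 lay between 0.653 and 57.5 CPM (median 17.4, 0.29, adjusted p = 0.8, but 1.69 and called within plates), Ccl7 had a median of 4.34 and Ccl12 of 0.388. Ccl8 was listed at 0 in all 6 cultures.

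Set against LPS_hi at 24 h, P3C cultures were lower in Ccl2 by 5.29 ± 0.64 on the log2 scale (adjusted p = 1e-13), in Ccl7 by 5.11, in Ccl12 by 4.55 and in Ccl5 by 3.70. The difference for Ccl2 was 3.32 within plates, and that for Ccl4 (−1.61, adjusted p = 0.02) was lost there (−0.41). The 10 comparisons between stimuli set P3C and IC against LPS_hi, LPS_hi against LPS_lo, and IFNa and IFNg against IFNb, at 24 and 72 h. Over them 28 of 80 pairs were called lower in the stimulus named first and none higher, against 2.88% lower for all genes. The direction depends on which stimulus is named first. At 72 h (6 cultures) the Ccr2 ligands were called with P3C as well. Ccl2 lay between 26.98 and 165 CPM (median 146, 3.80 ± 0.61 against untreated), Ccl7 between 0.465 and 63.7 (median 42.7, 2.39) and Ccl3 between 459.7 and 758 (median 579, 4.08), and Ccl5 (−2.39) and Ccl9 (−1.52) were called lower than in LPS_hi. Within plates Ccl2 (−1.64) and Ccl7 (−2.13) were lower than in LPS_hi too.

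PolyIC, a ligand of TLR3 and of cytosolic RNA sensors, raised Ccl5, Ccl9 and Ccl8. At 24 h (8 cultures) Ccl5 lay between 902 and 37265 CPM (median 14765), a log2 fold change of 5.18 ± 0.46 (adjusted p = 2.5e-24). Its difference from LPS_hi was −0.62 (adjusted p = 0.66, but −1.25 and called within plates). Ccl9 lay between 201 and 597 CPM (median 364, 2.64 ± 0.23) and Ccl8 between 0 and 41.2 (median 5.37, 1.69 ± 0.52, adjusted p = 0.013). Ccl2 stayed within its untreated range (8.12 to 19.8 CPM, median 13.4) and was lower than in LPS_hi by 5.06, as Ccl3 was by 3.64 and Ccl4 by 3.11, and Ccl9 by 1.10, which was not called within plates (−0.84). Within plates Ccl2 (1.97), Ccl12 (1.55) and Ccl4 (1.30) were called higher than untreated. Without the culture that resembled P3C no call changed, and Ccl8 was at 2.05. At 72 h (6 cultures) Ccl5 alone was called, between 365 and 17351 CPM (median 9227, 5.39 ± 0.54).

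**Figure D2:**
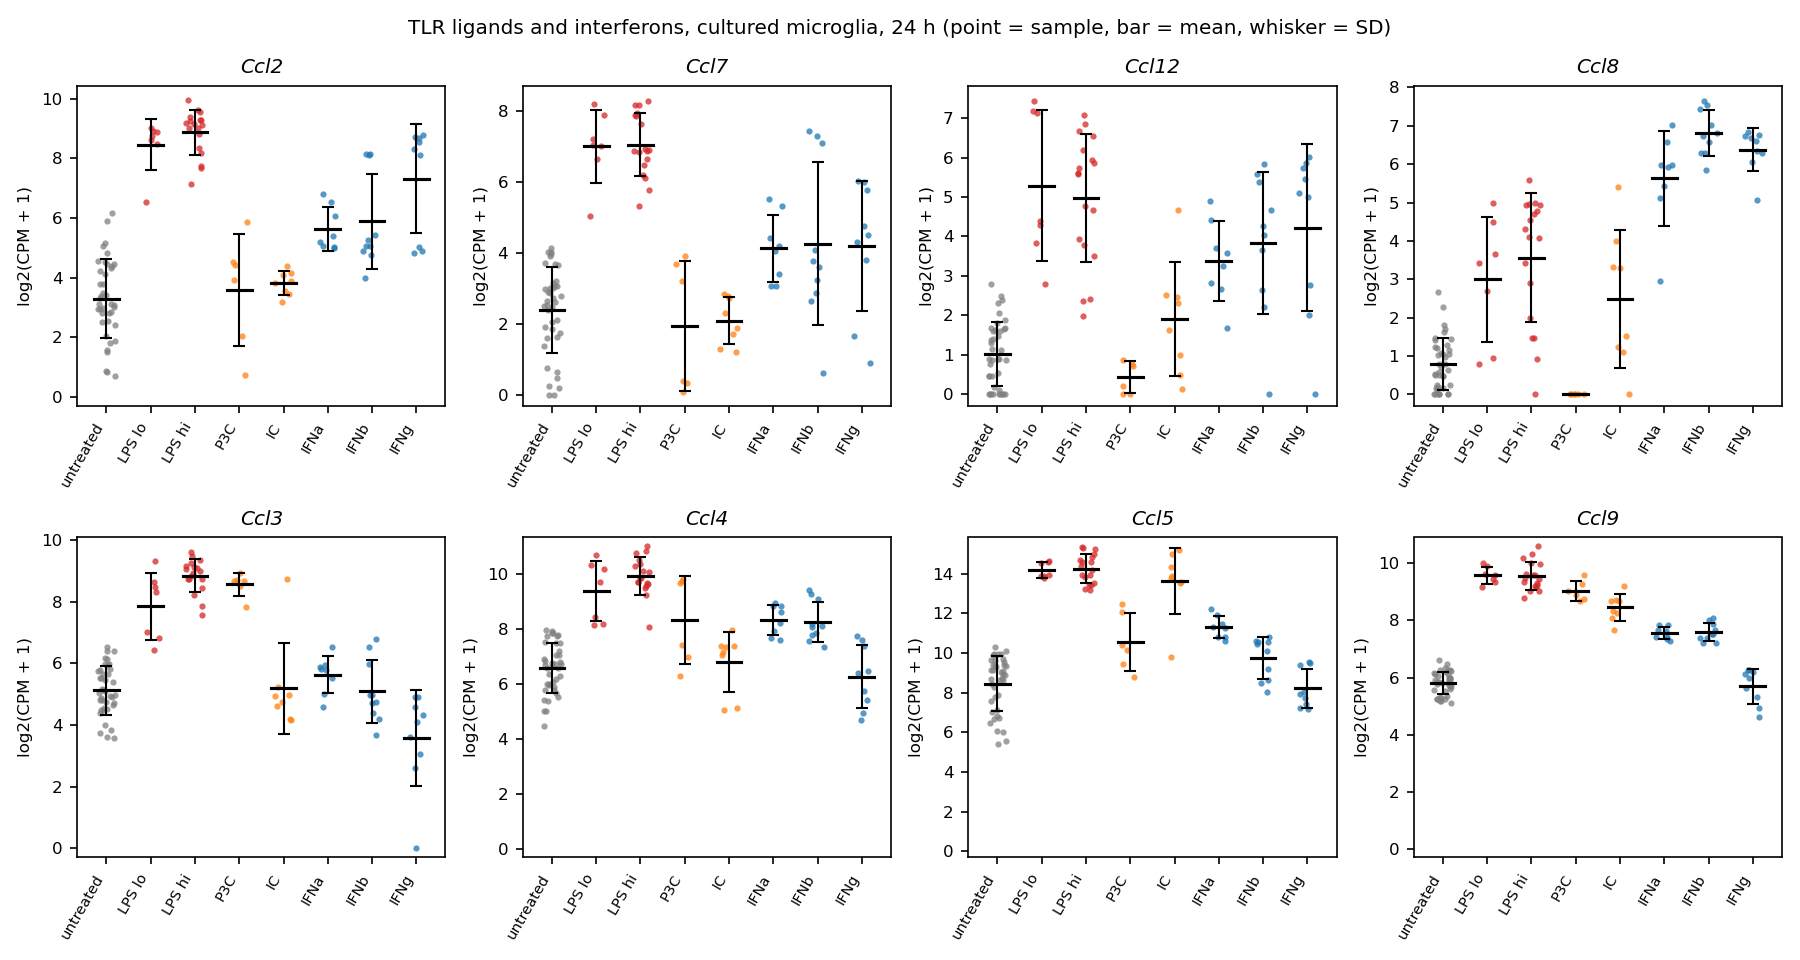
Level of each gene, as log2(CPM + 1), in untreated cultures and after LPS_lo, LPS_hi, P3C, IC, IFNa, IFNb and IFNg for 24 h, with each culture as a point, the mean as a bar and the SD as a whisker. Ccl8 is listed at 0 in all 6 P3C cultures and lies between 56.5 and 201 CPM with IFNb, while Ccl5 reaches 9449 CPM or more in every LPS_hi culture.

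Interferons, which act through STAT factors, raised Ccl8 from near 0. With IFNb for 24 h (10 cultures) Ccl8 lay between 56.5 and 201 CPM (median 108), a log2 fold change of 6.03 ± 0.47 (adjusted p = 1e-30). With IFNa (8 cultures) it lay between 6.81 and 129 (median 61.4, 4.84 ± 0.52) and with IFNg (9 cultures) between 32.4 and 114 (median 96.3, 5.59 ± 0.50). None of these cultures overlapped with untreated ones. Ccl12 rose with all 3 as well, by 2.36 with IFNa, 2.82 with IFNb (0 to 56.1 CPM, median 16.9) and 3.20 with IFNg (0 to 64.2, median 33.6). Ccl2 was between 27.6 and 435 CPM with IFNg (median 320, 4.03 ± 0.50), between 30.5 and 110.1 with IFNa (median 38.1, 2.33) and between 14.98 and 281 with IFNb (median 35.1, 2.60), and the difference between IFNg and IFNb was not called (1.43, adjusted p = 0.22).

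Type I and type II interferon parted on the second chromosomal group. IFNa and IFNb raised Ccl9 to 153 to 229.9 CPM (median 184, 1.74) and 146 to 269 CPM (median 184, 1.78), whereas with IFNg it lay between 23.7 and 76.1 (median 61.7, −0.11, adjusted p = 0.88). The difference between IFNg and IFNb was −1.89 (adjusted p = 2.1e-09) for Ccl9, −1.99 (p = 0.0026) for Ccl4 and −1.52 (p = 0.0035) for Ccl3. Ccl3 was called lower with IFNg than in untreated cultures, between 0 and 29.2 CPM (median 16.3, −1.56 ± 0.31, adjusted p = 1.9e-05). Ccl5 rose with IFNa to between 1578 and 4858 CPM (median 2517, 2.84), with IFNb to between 264 and 1783 (median 1254, 1.28, adjusted p = 0.026), and was not called with IFNg (−0.24), and its difference between IFNg and IFNb was not called (−1.53, adjusted p = 0.087). The calls of Ccl7 and Ccl4 with IFNa (1.74 and 1.76) were lost within plates, at 0.98 for each gene.

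At 72 h Ccl8 was higher with IFNa, IFNb and IFNg, and Ccl9 was higher with IFNb and lower with IFNg. Ccl8 was at 35.2, 35.7, 31.02 and 31.2 CPM in the 4 IFNb cultures (3.44, adjusted p = 0.00015) and between 0 and 168 CPM with IFNg (6 cultures, median 52.3, 2.59), both within the untreated range. The fall in the Ccl8 effect from 24 h was called for IFNg (−3.00) and not for IFNb (−2.59, adjusted p = 0.2). For IFNg the call was lost with library pool in the model (−1.78, adjusted p = 0.1). For IFNa the fall was called within plates (−2.61) and not in the test without plate (−1.47). Ccl9 was at 164, 164, 171 and 178 CPM with IFNb (1.52) and between 1.55 and 29.8 with IFNg (median 18.5, −2.07, adjusted p = 7.6e-12). The difference between IFNg and IFNb was −3.59 for Ccl9, −3.10 for Ccl4 and −3.03 for Ccl3. Ccl5, unlike at 24 h, was called higher with IFNg (130.3 to 908 CPM, median 395) and not with IFNa or IFNb. Its difference between IFNg and IFNb was again not called (−0.29, adjusted p = 0.92). With IFNa (7 cultures) Ccl8 lay between 1.25 and 62.3 CPM (median 53.2, 3.37, adjusted p = 5.7e-07). Ccl9 in these cultures lay between 10.84 and 139.7 CPM (median 85.4) and was not called, and it was lower than with IFNb by 1.33 (adjusted p = 0.03), but not within plates (−0.93, adjusted p = 0.5).

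GMCSF, the growth factor of granulocytes and macrophages, raised Ccl2, Ccl7 and Ccl12, the ligands of Ccr2. At 24 h (8 cultures) Ccl2 lay between 64.1 and 455 CPM (median 282, 4.56 ± 0.52, adjusted p = 2.5e-14), Ccl7 between 10.1 and 233 (median 99.3, 3.95) and Ccl12 between 4.03 and 21.5 (median 12.5, 2.44). Ccl9 reached 505 to 1186 CPM (median 676, 3.65) and Ccl3 79.3 to 227 (median 122, 1.96), while Ccl8 (0.22) and Ccl5 (1.40, adjusted p = 0.069) were not called, and the call of Ccl4 (1.49) was lost within plates (0.71). At 72 h (7 cultures) Ccl2 lay between 221 and 748 CPM (median 667), with a log2 fold change of 6.51 ± 0.58 (adjusted p = 6e-24), and Ccl7 between 25.9 and 312 (median 236, 5.53). The mean level of Ccl2 here was the highest of the 97 culture groups, with LPS_hi at 24 h next to it and overlapping it.

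IL4 and IL13, which act through STAT6, raised Ccl2 and Ccl7. With IL4 for 24 h (11 cultures) Ccl2 lay between 13.3 and 254 CPM (median 84.4, 3.00 ± 0.46), Ccl7 between 10.4 and 158 (median 68.1, 3.65 ± 0.47) and Ccl9 between 109 and 344 (median 199, 1.89). Ccl5 was called lower, between 48.9 and 438 CPM (median 76.4, −1.82), as was Ccl3 (6.59 to 25.2, median 14.5, −1.19), but within plates neither was (−0.41 and −0.95). IL13 raised Ccl2 (1.76) and Ccl7 (2.17) at 24 h. At 72 h the 3 IL4 cultures held Ccl7 at 90.8, 86.1 and 115 CPM (4.69) and Ccl2 at 43.7, 53.5 and 105.5 (3.32, adjusted p = 0.0043, but 2.95 and p = 0.11 without replicate 3). Their Ccl8, at 20.9, 44.1 and 15.8 CPM, lay within the untreated range and was called (3.01, adjusted p = 0.012) but not within plates (0.75) or without replicate 1 or 2. IL10, which acts through STAT3, raised Ccl2 (1.73), Ccl12 (2.07) and Ccl8 (2.02) at 24 h and Ccl2 (2.04), Ccl12 (2.54) and Ccl4 (1.60) at 72 h.

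Ccl9 rose with agents that raised no other member at 24 h. TNFa for 24 h (7 cultures) brought it to 237 to 639 CPM (median 405, 2.84 ± 0.24) and nicotine (8 cultures) to 219 to 505 (median 357, 2.68), both above every untreated culture. Norepinephrine (1.41), ATP (1.21), dopamine (1.14) and PGE2 (1.05) also raised it at 24 h. In the TNFa cultures Ccl4 was lower, between 6.03 and 56.5 CPM (median 25, −2.20, adjusted p = 7.7e-05), and in the nicotine cultures it was lower by 1.67. TGFb was the only one of the 44 conditions in which Ccl9 was called lower at 24 h. It lay between 8.84 and 26.98 CPM (8 cultures, median 13.2, −1.90 ± 0.23, adjusted p = 5.7e-12), below every untreated culture. Ccl4 (4.28 to 44.3 CPM, median 27.6, −2.16) and Ccl3 (4.74 to 17.7, median 10.2, −1.73) were lower with TGFb too. At 72 h the 4 TGFb cultures held Ccl9 at 12.1, 16.3, 17.8 and 22.0 CPM (−1.75). With TNFa at 72 h Ccl9 was called lower, not higher, and within plates too. It was at 26.1, 43.9 and 5.20 CPM in 3 cultures from a single plate, whose untreated cultures had a median of 23.8 CPM. The difference between the TNFa effects at 24 and 72 h was not tested.

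Whether an effect lasted was tested as the difference between the 72 h and the 24 h effect of 12 stimuli. Of 96 pairs, 4 were higher at 72 h and 9 lower, against 1.63% and 0.984% of all pairs. The 24 h cultures of, among others, P3C, IC, IFNb, IFNg, IL4 and TGFb came from other lots of cells than the 72 h ones, so time and lot cannot be told apart. The effect of IFNg on Ccl2 was smaller at 72 h by 4.07 ± 0.79 (adjusted p = 9.5e-05) and that on Ccl8 by 3.00, and Ccl9, which IFNg left uncalled at 24 h and lowered at 72 h, gave a difference of −1.96. The effect of LPS_hi fell by 2.61 ± 0.60 for Ccl8 and by 1.94 for Ccl4, and that of IC on Ccl9 by 2.61. P3C had a larger effect at 72 h on Ccl2 (3.50 ± 0.85), Ccl7 (2.84) and Ccl12 (2.70), but within plates these differences were 1.75, 1.19 and 1.98 and none was called, and its effect on Ccl9 was smaller at 72 h (−1.60, called within plates too). For GMCSF the reverse held, since its larger effects at 72 h on Ccl2 (2.79), Ccl7 (2.65), Ccl12 (2.47) and Ccl4 (1.72) were called within plates and not in the pooled test (1.95, 1.58, 2.10 and 0.22). Smaller effects of IC on Ccl2 (−3.14) and Ccl7 (−2.14) and of IFNb on Ccl2 (−2.88) were also called within plates and not in the pooled test.

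LPS was also given with a second agent, to ask what that agent does to the LPS response. Over 19 combinations compared with LPS alone at the same dose and time, 2 of 152 pairs were higher and 17 lower, against 0.540% and 0.622% of all pairs, and 11 combinations had no call. Both higher calls were Ccl8. In the 5 cultures with LPS_lo and IL4 for 72 h, Ccl8 was at 77.3, 897, 1521, 1178 and 805 CPM, against 1.49 to 121 (median 24.8) with LPS_lo alone, a difference of 4.85 ± 0.72 (adjusted p = 2.4e-08, and 5.60 without the lowest culture). With LPS_lo, IL4, IL10 and IL13 it was at 2397, 1611, 2620, 863 and 1372 CPM, higher by 6.22 ± 0.72 (adjusted p = 2.9e-14) and by 9.02 ± 0.66 than in untreated cultures. By mean level these were the highest of the 97 culture groups for Ccl8, followed by IFNb at 24 h, which the mix did not overlap.

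The same mix lowered Ccl5. It was at 1382, 923, 1650, 1866 and 1764 CPM, against 5350 to 15214 with LPS_lo alone (−2.93, adjusted p = 0.00034). With IL13 added alone Ccl8 lay between 34.1 and 161 CPM (1.83, adjusted p = 0.59) and with IL10 alone between 27.8 and 102 (1.52, adjusted p = 0.29), neither of which was called. The effect of LPS_lo on Ccl8 was larger with the mix than without it by 2.49 ± 0.95, which was not called (adjusted p = 0.21), but was within plates (3.09, adjusted p = 0.013). With IL4 it was larger by 1.83 ± 1.09, which was called neither in the pooled test (adjusted p = 0.67) nor within plates (2.77, adjusted p = 0.16). Summed perivascular macrophage markers were higher beside Ccl8, with sums of 466 to 764 CPM with LPS_lo and IL4 and 383 to 1101 with the mix against 44.4 to 81.2 with LPS_lo. Of these 6 markers, Lyve1 and F13a1 had a median of 0 in all 3 groups, and Cd163 had a median of 0 with LPS_lo and with LPS_lo and IL4. The part of these markers in the result was not tested.

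**Figure D3:**
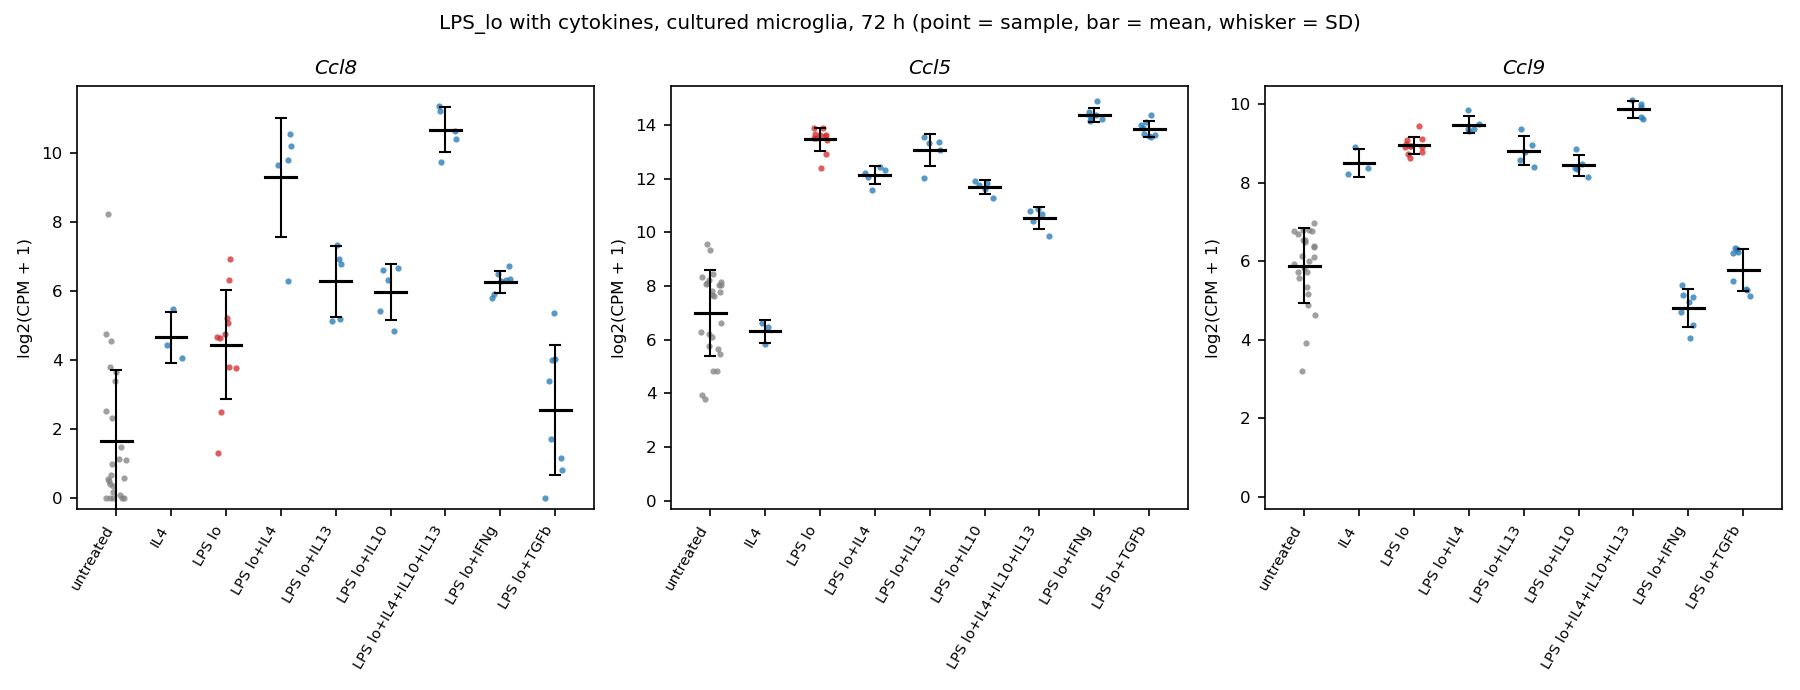
Level of Ccl8, Ccl5 and Ccl9 as log2(CPM + 1) in cultures after 72 h without stimulus, with IL4, with LPS_lo and with LPS_lo plus a cytokine, with each culture as a point, the mean as a bar and the SD as a whisker. Ccl8 is highest with LPS_lo, IL4, IL10 and IL13 (863 to 2620 CPM), and Ccl9 falls to 15.5 to 41.4 CPM when IFNg is added.

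IFNg and TGFb lowered Ccl9 under LPS. With LPS_lo and IFNg (7 cultures) Ccl9 lay between 15.5 and 41.4 CPM (median 30.3) against 397 to 695 (median 491) with LPS_lo, a fall by 4.14 ± 0.29 (adjusted p = 6.3e-38), while Ccl5 in the same cultures lay between 17948 and 30247 (0.92, adjusted p = 0.6). The effect of LPS_lo on Ccl9 was smaller with IFNg than without by 2.06 ± 0.39 (adjusted p = 7.7e-05) and smaller with IL4 by 2.08 ± 0.48 (adjusted p = 0.0067, but 0.086 without IL4 replicate 3), where 0.782% of pairs of all genes were called lower. The level of Ccl9 did not fall with IL4 as it did with IFNg. It was at 634, 661, 720, 666 and 923 CPM with LPS_lo and IL4, which was not called against LPS_lo, and at 331, 298 and 478 CPM with IL4 alone. With LPS_lo and TGFb (8 cultures) Ccl9 lay between 33.7 and 80.2 CPM (median 58.4, −3.17, adjusted p = 5.5e-24), Ccl4 between 29.3 and 142 (median 99.9, −2.52), Ccl3 between 31.8 and 108 (median 52.4, −1.55) and Ccl7 was lower by 3.32. Ccl5 in those cultures lay between 11886 and 20995 CPM, within or above the range of LPS_lo.

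Resveratrol, a plant polyphenol, lowered the Ccr2 ligands under LPS_lo at 24 h (8 cultures). Ccl2 lay between 5.61 and 79.7 CPM (median 29.97) against 92.3 to 520 with LPS_lo (−3.56, adjusted p = 0.00044), Ccl7 was lower by 3.36 and Ccl12 by 3.08. Norepinephrine had a like effect at 72 h in 3 cultures from a single plate, with Ccl2 at 5.21, 4.73 and 16.1 CPM (−3.69, adjusted p = 0.01), a call that ended without replicate 1 (adjusted p = 0.15) or replicate 2 (0.22). At 4 h norepinephrine (8 cultures) held Ccl3 under LPS_hi at 294 to 409 CPM (median 343) against 1480 to 2084 (−2.31, adjusted p = 4.5e-05) and Ccl9 at 146 to 287 (−1.52). Ccl4 did not overlap either, at 1606 to 3477 CPM against 7126 to 10516, but the pooled difference was not called (−1.83, adjusted p = 0.06), while that within plates was (−1.85, adjusted p = 0.0027). Norepinephrine without LPS for 4 h (7 cultures) also lowered Ccl3, to 6.22 to 35.1 CPM against 14.6 to 106 in the CCL2 and CCL7 cultures (−1.31, adjusted p = 0.025). Whether its effect on Ccl3 was larger under LPS_hi was not tested. With ATP at 4 h (6 cultures) only Ccl9 was called lower, at 114 to 253 CPM (median 129.8, −1.96), and Ccl3 did not overlap with LPS_hi but was not called (−0.80, adjusted p = 0.6).

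A stack of stimuli at 72 h, chosen for comparison after the values had been seen, set PGE2 against P3C. Of 48 pairs over 6 such comparisons, 9 were higher and 12 lower, against 1.54% and 1.55% of all pairs. With P3C and PGE2 (7 cultures) Ccl2 lay between 0 and 5.44 CPM (median 2.20) against 26.98 to 165 with P3C, lower by 4.78 ± 0.75 (adjusted p = 1e-07). Ccl3 (13.8 to 120 CPM, median 39.9, against 459.7 to 758) was lower by 3.75 and Ccl4 (1.26 to 257, median 71.2, against 802 to 1470) by 4.43. Ccl5 was lower by 2.44 (54.4 to 362 CPM against 760.3 to 1669). Ccl9 went the other way, to between 366 and 910.3 CPM (median 644) against 117 to 234, higher by 1.82 ± 0.33 (adjusted p = 8.5e-06). With PGE2 alone at 72 h Ccl9 lay between 81.1 and 509 CPM (1.46) and no other member was called.

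Ccl2, Ccl3 and Ccl4 were lower and Ccl9 higher with PGE2 in the presence of TNFa too. Against TNFa and P3C (7 cultures), adding PGE2 (7 cultures) brought Ccl2 from 37.3 to 235 CPM down to 0.175 to 12.97 (−4.67), Ccl3 from 447 to 953 down to 121 to 251 (−2.22) and Ccl4 from 413 to 1465 down to 62.7 to 278 (−2.69), and Ccl9 rose from 93.3 to 298 up to 217 to 659 (1.20, adjusted p = 0.0085). Adding IFNb to these 3 agents (7 cultures) raised Ccl5 to between 4103 and 8975 CPM (median 8302, 4.34, adjusted p = 4.3e-09), Ccl2 to between 8.09 and 169 (median 108, 3.73), Ccl8 to between 1.19 and 58.0 (median 9.03, 2.65) and Ccl7 by 3.39. Ccl9 fell with it by 1.89, to between 60.3 and 259 CPM. TNFa added to IFNg (8 against 6 cultures) raised Ccl5 from 130.3 to 908 CPM up to 1559 to 17539 (median 13720, 4.89, adjusted p = 5.8e-11) and Ccl9 by 1.41.

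**Figure D4:**
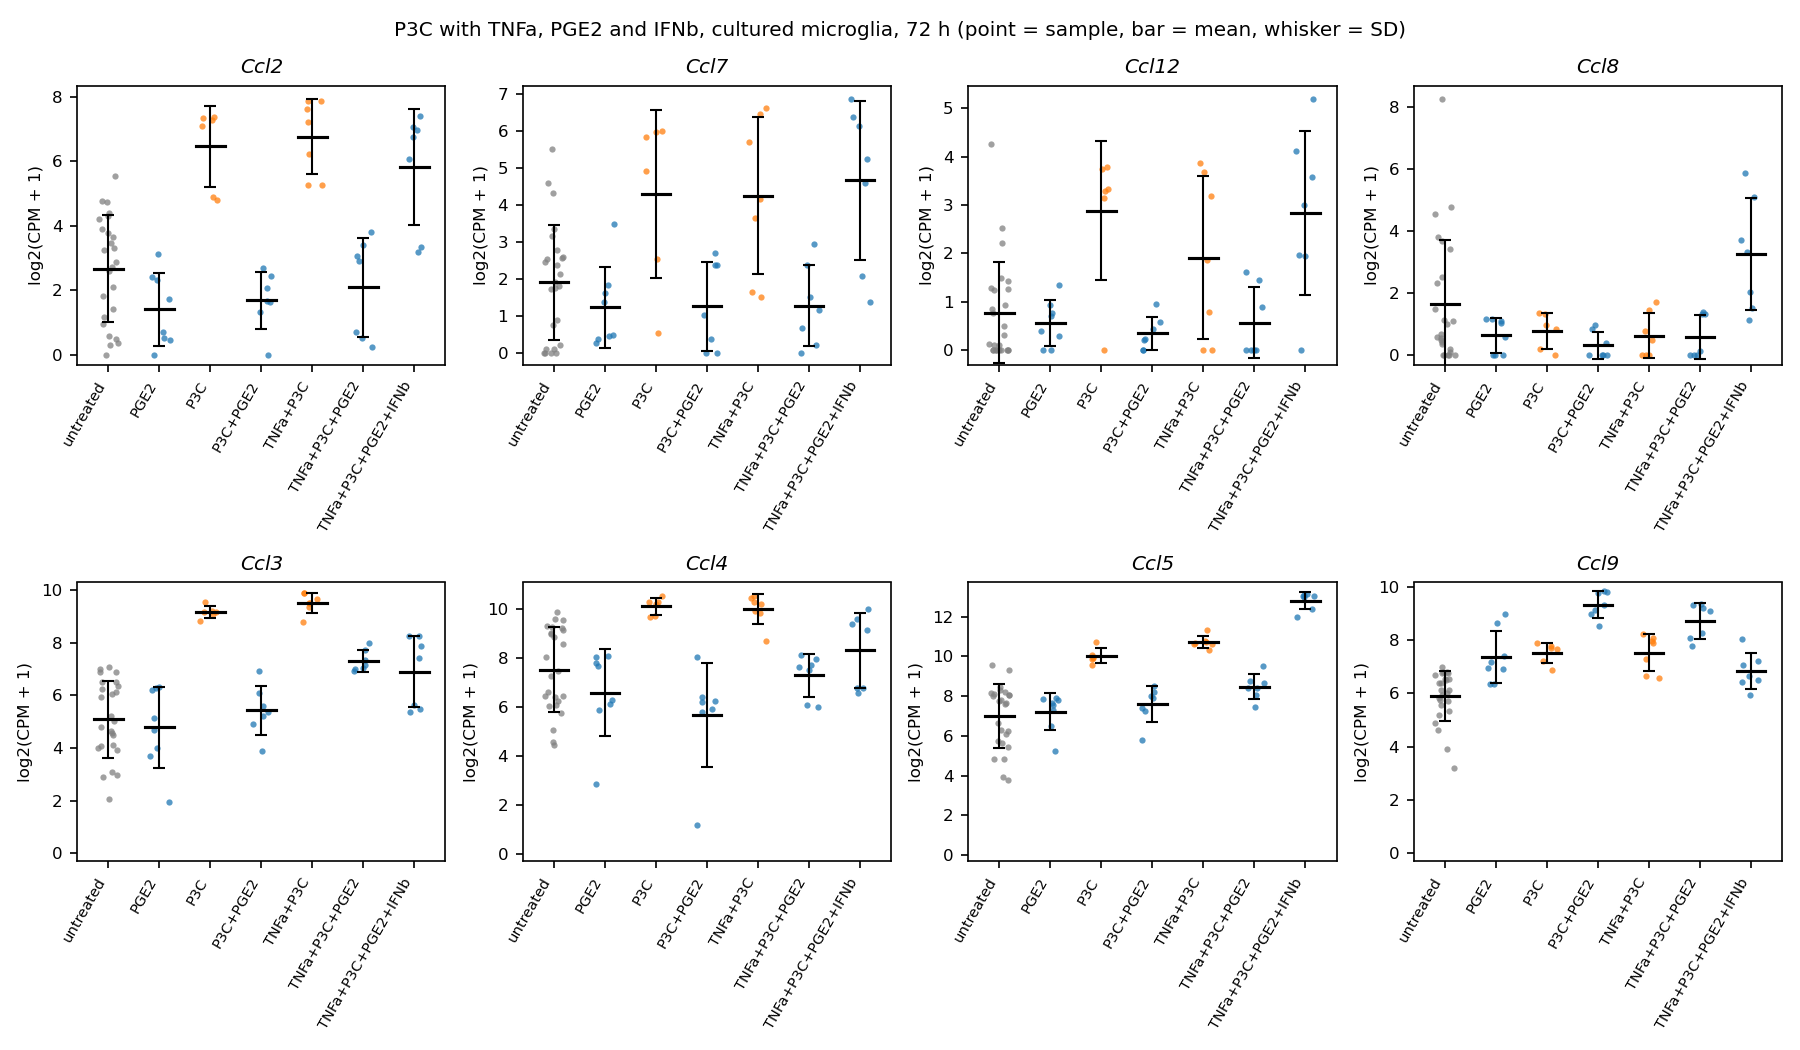
Level of each gene, as log2(CPM + 1), in cultures after 72 h with P3C, TNFa, PGE2 and IFNb in the combinations named on the axis, with each culture as a point, the mean as a bar and the SD as a whisker. Ccl2, Ccl3 and Ccl4 drop where PGE2 joins P3C, while Ccl9 rises to 366 CPM or more with P3C and PGE2 and to 217 CPM or more with TNFa added to them, and Ccl5 climbs to 4103 CPM or more where IFNb is added.

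In mice given LPS for 4 h, 7 members passed the filter on low values and were called higher than in PBS mice without overlap, where 8.79% of all genes tested were called higher. The LPS mice alone were enough to pass the filter, and Ccl2 and Ccl7 did not meet it in the PBS mice, so the place of these genes among the 7 was set by the group where they are high. Ccl12 was at 1530, 1862, 1199 and 1199 CPM in the LPS mice against 70.6, 67.7, 62.1 and 78.1 in the PBS mice (4.34 ± 0.15). Ccl4 was at 2296, 3050, 2891 and 2894 CPM against 146, 124, 134 and 142 (4.34 ± 0.13). Ccl5, at 366, 561, 595 and 566 CPM against 30.02, 17.3, 31.1 and 35.2, rose by 4.17. Ccl2 was at 104, 131, 107 and 73.4 CPM against 7.26, 5.34, 4.16 and 4.78 (4.03 ± 0.21, adjusted p = 3.5e-09), Ccl3 between 209.7 and 343 against 12.6 to 20.1 (3.97) and Ccl7 between 33.8 and 56.9 against 0.866 to 5.14 (3.70). Ccl9 moved least, at 229, 214, 186 and 211 CPM against 73.8, 80.7, 87.4 and 71.3 (1.41 ± 0.13, adjusted p = 1.4e-06). Ccl8 did not pass the filter, at 0.696 to 3.09 CPM against 0 to 1.02.

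Markers of other cell types and genes of the response to dissociation were higher in these LPS mice. The 7 dissociation genes summed to 3087 to 3743 CPM against 372 to 418, with 6 of 7 higher, and in cultures they summed to 670 to 1534 CPM with LPS_hi at 4 h and to 169 to 746 without stimulus at 24 h. Neutrophil markers summed to 179 to 328 CPM against 81.8 to 149 (4 of 5 tested higher), monocyte markers to 64.7 to 136 against 24.5 to 57.2 (3 of 5 tested higher and 1 lower) and T and NK cell markers to 46.5 to 87.2 against 11.6 to 18.6, with Cd3e and Cd3g at a median of 0. Microglial markers summed to 46598 to 52153 CPM against 43809 to 54861, with 2 of 8 called lower. The part of these cells and genes in the chemokine result was not tested.

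In naive mice, 5 members passed the filter and 4 were higher at 22 than at 2 months, against 6.95% of all genes tested. Ccl5 lay between 11.8 and 359 CPM (median 38.95) in old mice and between 2.01 and 45.5 (median 13.9) in young ones, higher by 1.66 ± 0.31 (adjusted p = 0.00043). Ccl3 lay between 5.05 and 22.9 CPM (median 12.3) against 1.67 to 9.65 (median 4.67), 1.16 ± 0.18, and Ccl4 between 32.3 and 86.8 (median 59.6) against 16.2 to 60.2 (median 39.9), 0.73 ± 0.12. All 3 overlapped between ages and were higher by median in each series of libraries. Ccl12 lay between 15.6 and 136 CPM (median 38.6) against 9.85 to 67.4 (median 16.8), 0.92 ± 0.25 (adjusted p = 0.016), a call lost without the term for library series (0.073) or the filter (0.057). Ccl9 was not called (−0.27, adjusted p = 0.12). Ccl3 passed the filter through the 22 month mice, all above 5 CPM, and Ccl2, Ccl7 and Ccl8 were under the filter. The filter asked for 11 mice, and the 2 month mice alone, with a lowest value of 2.01 CPM, did not meet it for Ccl5 either.

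Markers of T and NK cells were higher in the same old mice. The 22 month mouse with 359 CPM of Ccl5 also had the highest sum of those markers, 128 CPM, and without it the difference in Ccl5 was 1.45 (adjusted p = 0.0002), with all 4 calls kept. Summed T and NK cell markers were 13.6 to 128 CPM in old and 5.25 to 31.4 in young mice (2 of 2 tested higher), and neutrophil markers 322 to 4045 against 150.3 to 1213 (6 of 6 higher). Monocyte markers summed to 75.6 to 366 CPM in old and 42.8 to 129.7 in young mice (4 of 5 tested higher), while 3 of 8 microglial markers were called lower with age. Their part in the result was not tested. Within the first series of libraries no member was called, with Ccl5 at a median of 19.3 against 8.17 CPM, and within the second it was at 55.3 against 14.8 (1.79, adjusted p = 0.0035).

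**Figure D5:**
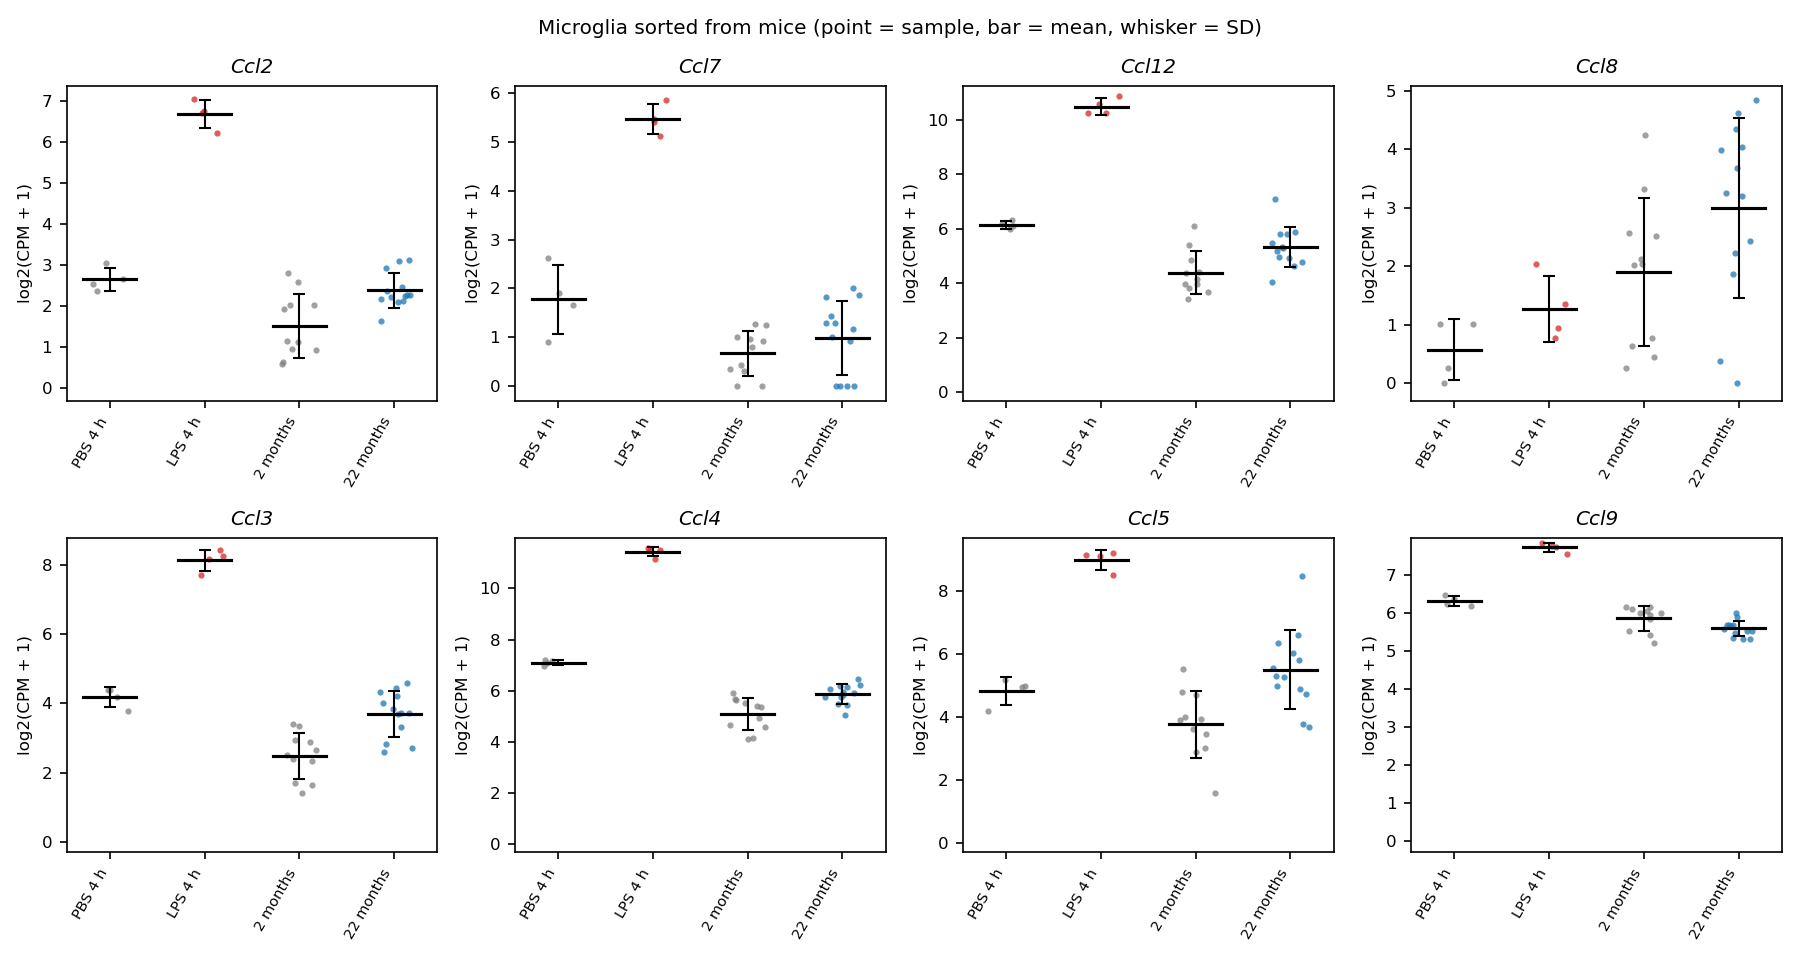
Level of each gene, as log2(CPM + 1), in microglia of mice 4 h after PBS or LPS and of naive mice of 2 and 22 months, with each mouse as a point, the mean as a bar and the SD as a whisker. The 4 LPS mice lie above the 4 PBS mice for every gene but Ccl8, and Ccl5 in old mice spans 11.8 to 359 CPM.

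Receptors, other CC ligands and signalling genes were counted beside the members. At 24 h LPS_hi raised 2 of 5 tested receptors, Ccrl2 (23.4 to 424 CPM, median 285, against 0.508 to 61.1, 3.11), which binds chemokines without signalling, and Ccr1 (1.35). P3C lowered Ccr1 (−1.54), whereas IFNg raised it to between 24.6 and 78.2 CPM (2.53). Of 4 other CC ligands tested, Ccl22, a ligand of Ccr4, was the only member of its list called with LPS_hi (3.83) and with IFNg (2.86). Of 17 signalling genes, 12 were higher with LPS_hi at 24 h (5.25% of all genes) and 15 at 4 h (5.20%), 5 with P3C (Nfkb2, Relb, Nfkbia, Nfkbiz and Myd88, against 3.22%) and 7 with IFNg (against 4.40%), among them Irf1. In mice given LPS, 14 of 17 were higher (8.79% of all genes), with Ccrl2 at 125 to 135 CPM against 9.22 to 14.6 (3.43), Ccr1 higher (1.22) and Ccr2 lower, at 1.06 to 2.86 against 5.67 to 12.3 (−1.90). No receptor was called with age.

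Over the mean levels of 97 culture groups, the members fell into sets that varied alike. These are descriptions over groups that share lots and plates. Ccl2 varied most like Ccl7 (Pearson r = 0.930, and 0.88 over the 73 groups without LPS) and Ccl12 (0.885), and then like Rgl1. Ccl3 varied most like Ccl4 (0.894, and 0.78 without LPS), with Ppfia3 (0.846) and Nfkbiz (0.833) next. Ccl5 was closest to the interferon-induced genes Oasl1 (0.894), H2-Q7 (0.890) and Usp18 (0.888), and Ccl12 after its neighbours to Fgl2 (0.848). Ccl8 was closest to Pla2g5 (0.736), 4930430E12Rik (0.728) and Psme1 (0.714). Among the members it varied most like Ccl12 (0.69, and 0.65 without LPS), and it had r = 0.14 with Ccl3. Ccl9 was closest to Igsf6 (0.743), Gch1 (0.720) and Ms4a6d (0.719).

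The order of group means differed by member. Ccl3 and Ccl4 were highest with LPS_hi at 4 h, followed by LPS_hi with ATP at 4 h, which did not overlap with it for Ccl3 (771 to 1181 CPM) but did for Ccl4 (5295 to 10748). Ccl5 was highest with LPS_lo and rapamycin at 24 h (24360 to 65765 CPM), and overlapped there with LPS_hi and minocycline (18258 to 51686). Ccl7, Ccl8 and Ccl9 were highest with LPS_lo, IL4, IL10 and IL13 at 72 h, where Ccl9 lay between 783 and 1108 CPM, overlapping with TNFa and PGE2 (673 to 1316). At the bottom, Ccl9 was lowest with IFNg at 72 h and TGFb at 24 h, Ccl4 with TNFa and PGE2 at 72 h (3.36 to 34.3 CPM, median 18.4), and Ccl7 and Ccl12 were listed at 0 in all 3 TNFa cultures at 72 h. Those 3 cultures came from a single plate whose untreated cultures also had a median of 0 for both genes. Neither gene was called lower with TNFa.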

How the data were processed

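RNA of 784 cultures and 32 mice was sequenced from the 3′ ends of transcripts. Reads were matched by the authors to Ensembl build 81 with salmon 0.7.1, and the sums per gene were deposited as CPM, which the paper calls TPM and which carry no correction for length. The authors removed cultures with few reads or few expressed genes, and the labels name the build mm8. The values of a culture summed to 996125 to 999918. The share of low values within 0.1 of a whole read was as low as 70.2%, so counts were not rebuilt, depth came from the step between low values, and no interval was attached to a single value. Since CPM are shares of a library, large gains in some genes push the rest down, and low values are imprecise where a library was shallow.

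Values were taken as log2(CPM + 1), which understates the change of low genes. Comparisons used limma 3.58.1 in R 4.3.3 (2-sided, Benjamini-Hochberg over all genes) in 783 cultures of 97 groups (16935 genes above 5 CPM in at least 4 cultures), in 8 mice (9012 genes) and in 24 mice with a term for library series (9632 genes above 5 CPM in at least 11 mice). A culture whose label joins LPS_hi to the lower dose was left out. The alternatives were plate or pool in the model, an exact rank-sum test with Bonferroni correction, pseudocounts of 0.1 and 5, no filter, no minimum fold change, size factor scaling, and leaving out replicates. The fit was tested on simulated data. Figures and tables used Python 3.11.15, numpy 2.4.6, pandas 2.3.3, scipy 1.17.1 and matplotlib 3.10.9.

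The 8 genes and all lists were chosen with earlier results of these data known. The comparisons of stacked stimuli and the LPS_lo interactions were chosen after values were seen. The named genes were the 8 members and, beside each, the 3 genes most like it over the culture groups. All 8 were tested in every culture comparison, and the text gives the comparisons with the clearest differences and counts the rest. Some genes of the receptor and signalling lists are not reported here.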

Additional observations from a re-analysis of the deposited data

Results flagged for a closer look

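In groups of 4 to 10 samples, a highest or lowest sample that lay far from the rest was looked for in 168 pairs of member and group, over 21 groups, and 19 were found, where chance gives about 1 in 20. Several came from the same culture. The IC culture at 24 h that resembled P3C (replicate 5) had Ccl3 at 422 CPM, against 16.7 to 36.8 in the others, and Ccl5 at 902, against 11841 to 37265. A GMCSF culture at 72 h (replicate 4) was low in Ccl2 (221 CPM against 638 to 748), Ccl7 (25.9 against 187 to 312), Ccl12 (2.32 against 26.4 to 106) and Ccl4 (340 against 548 to 775). A culture with LPS_lo and IL4 at 72 h (replicate 1) was low in Ccl8 (77.3 CPM against 805 to 1521) and Ccl12 (7.51 against 82.6 to 125).

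The other single samples that lay apart were Ccl2 at 92.3 CPM with LPS_lo at 24 h (others 352 to 520), Ccl3 at 225 with P3C at 24 h (others 366 to 489), Ccl8 at 6.81 with IFNa at 24 h (others 33.6 to 129), Ccl8 at 32.4 with IFNg at 24 h (others 65.8 to 114) and Ccl3 at 0 with IFNg at 24 h (others 5.06 to 29.2). Ccl9 was at 1186 CPM in a GMCSF culture at 24 h (others 505 to 732). At 72 h Ccl12 was at 0 in a P3C culture (others 7.89 to 12.8), Ccl4 at 1.26 in a culture with P3C and PGE2 (others 53.9 to 257), Ccl4 at 413 with TNFa and P3C (others 891 to 1465) and Ccl5 at 1559 with TNFa and IFNg (others 12394 to 17539). In mice given LPS, Ccl5 was at 366 CPM in an animal and at 561 to 595 in the others.

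The 72 h effect differed from the 24 h effect in 13 pairs of member and stimulus. For LPS_hi the differences were −2.61 for Ccl8 and −1.94 for Ccl4, for P3C 3.50 for Ccl2, 2.84 for Ccl7, 2.70 for Ccl12 and −1.60 for Ccl9, and for IC −2.61 for Ccl9. For IFNa they were −2.85 for Ccl2 and −1.56 for Ccl9, and for IFNg −4.07 for Ccl2, −3.00 for Ccl8 and −1.96 for Ccl9. For TGFb the difference was 2.15 for Ccl3, which was not called within plates (1.32). The P3C differences for Ccl2 (1.75), Ccl7 (1.19) and Ccl12 (1.98) were not called within plates either. The effect of LPS_lo on Ccl9 at 72 h differed with IL4 by −2.08 and with IFNg by −2.06.

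The culture labelled LPS_hi with the lower dose, which entered no comparison, had Ccl5 at 1712 CPM and Ccl9 at 734 after 72 h, above the highest untreated cultures (753 and 125).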

How the results depend on the processing

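The count of members called lower at 24 h was 22 and became 10 with plate, 12 with pool and 2 with the rank-sum test. At 72 h the higher count of 137 became 40 with the rank-sum test, and the lower count of 14 became 0 with it and 32 with pool. For LPS combinations, 2 higher calls became 5 with plate, 5 with pool and 0 with the rank-sum test, and 17 lower calls became 0 with the rank-sum test, which the groups behind these calls were too small to pass, and 10 with a pseudocount of 0.1. Between stimuli, 0 higher calls became 3 with plate, 6 with pool and 1 with a pseudocount of 5, and 28 lower calls became 3 with the rank-sum test. For time, 9 lower calls became 15 with plate and 15 with pool. For untreated 72 h against 24 h, which shared no plate, so that plate is no check of them, 1 lower call became 0 with plate, pool or the rank-sum test, and 0 higher calls became 1 with no minimum fold change. For interactions, 0 higher calls became 1 with plate, 1 with pool and 2 with a pseudocount of 5, and 2 lower calls became 8, 5 and 4. The rank-sum test gave 0 for LPS_hi at 4 h (8), for combinations without LPS (9 higher, 12 lower) and for mice given LPS (7), where groups of these sizes cannot pass its correction, and for aging (4), and it does not apply to time and interaction contrasts. The first library series alone gave 0 higher calls for aging, and the second gave 3, without Ccl12, and 1 lower call, Ccl9.

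Replicates were left out in turn only in the smallest groups of cultures and in the LPS experiment, and for aging only the mouse highest in T and NK cell markers was left out. No 24 h condition was refitted in this way. The refits gave 136 to 137 higher and 13 to 15 lower calls at 72 h (42 refits), 3 to 4 higher and 9 lower for time (11), 2 higher and 15 to 17 lower for LPS combinations (23), 1 to 2 lower for interactions (23), 26 to 27 lower between stimuli (4), 9 higher and 12 lower for combinations without LPS (3), 7 higher in mice given LPS (8) and 4 for aging (1). With pool in the model the direction turned for Ccl7 with IC at 24 h (1.23), Ccl4 with estradiol at 72 h (−1.15) and the time difference of Ccl4 for P3C (−1.69) and IC (−2.31), and for Ccl5 with LPS_hi and estradiol against LPS_hi at 24 h it was −1.33 with plate and −1.53 with pool. The cause was not tested. Of the values of a member in a comparison, 1049 kept their call or stayed without one with plate, 33 lost and 69 gained a call. With size factor scaling these numbers were 1155, 4 and 5. The direction of a value that stayed without a call was not compared. Depth limits the low genes: in a culture of 1 M reads, the untreated medians of Ccl8 (0.598 CPM) and Ccl12 (0.860 CPM) are under a single read. No paired analysis was possible because the labels give no replicate numbers that groups share.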
